A study of Mus musculus with 2 samples.

Results

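The 7 genes described here, Psip1, Hdgfrp2, Morf4l1, Brpf1, Mum1, Zmynd11 and Glyr1, encode proteins that bind histone H3 methylated at lysine 36 (H3K36). They were chosen by symbol, and all 7 have a row among the 17817 gene symbols measured. RNA was sequenced from 1 wild-type and 1 Setd2 knockout library of mouse embryonic stem cells of mixed 129SV/C57BL/6 strain, at passages 10 to 12, with no treatment of either. Both cultures were grown on feeder cells, depleted of them by letting them attach for 0.5 h, and collected 2 days after a passage on gelatin. How Setd2 was disrupted, and whether each genotype stood for 1 clone, was not stated in the labels used here. Each genotype had 1 library, so no difference below has a replicate check and none was tested.

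Setd2 is the methyltransferase that places trimethylation on H3K36 over the bodies of transcribed genes. Reader proteins recognise that mark, most of them through a PWWP domain and Morf4l1 through a chromodomain, and bring coactivators, acetyltransferases, deacetylases, splicing factors or demethylases to transcribed chromatin. The comparison asks whether the readers' own transcripts differ in level between the wild-type library and the one labelled Setd2 knockout. Neither the enzyme nor the mark was measured in these data.

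The wild-type library held 56129838 reads over genes and the knockout library 52041677, counted as sequenced bases divided by 76. Levels are given as reads per 1000000 reads of the library (CPM), and a log2 fold is log2((knockout + 0.5)/(wild type + 0.5)) on that scale. Setd2 itself was at 452 CPM in wild-type and 174 CPM in knockout cells, a level over the whole gene. All 8 stem cell markers were present, from 159 to 558 CPM in wild-type and from 68.1 to 584 CPM in knockout cells, and 6 of 8 were lower in the knockout library. The lowest of these by fold were Zfp42, at 283 and 68.1 CPM (log2 fold -2.05), and Utf1 (-0.77). Nanog, at 221 and 310 CPM (0.49), and Dppa5a (0.35) were higher, and Pou5f1 was at -0.04. The 12 fibroblast markers, standing for feeder cells, summed to 91.0 and 65.0 CPM, with 9 of 12 lower in the knockout library and Col1a1 the highest in both. Of the 12, 3 were below 1 CPM in both libraries. Among these was Lum, at 0.071 CPM in wild-type and listed at 0 in knockout cells. The Y-linked genes Ddx3y, Eif2s3y, Uty and Kdm5d summed to 0.835 and 309 CPM, so the libraries differed in more than the Setd2 label. The part of these differences in any result below was not tested, and genotype cannot be told apart from line or culture. In bulk RNA, fewer cells of a type and less RNA per cell cannot be told apart either.

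Psip1 and Morf4l1 have near-identical copies elsewhere in the genome, which bears on how far their rows can be read. Windows of 76 bases, the unit of a read here, were tiled every 19 bases over the transcript of each reader with the longest coding sequence and aligned to the genome. For Morf4l1 83 of 101 windows had another full-length place with at most 2 mismatches, at 10 places, and 76 had an identical one. For Psip1 46 of 168 windows had one, all at 1 place, and 6 were identical there. For Hdgfrp2, Brpf1, Mum1, Zmynd11 and Glyr1 the count was 0 windows.

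The sequences below show how close the copies are. Each pair gives 76 coding bases of the gene and the copy on its own line, 5′ to 3′ in the gene's direction, from the mm9 genome and its GENCODE transcripts, and capitals mark the bases that differ. The Psip1 copy lies at chr7:13188445-13188520 and chr7:13188517-13188592, plus strand, within the span of the vomeronasal receptor gene Vmn2r53, and the second window reaches the annotated pseudogene Gm15773. The Morf4l1 copy lies at chr19:41600304-41600379 and chr19:41600456-41600531, plus strand, within the annotated span of Lcor and within the row Gm6747.
Psip1 coding bases 37 to 112: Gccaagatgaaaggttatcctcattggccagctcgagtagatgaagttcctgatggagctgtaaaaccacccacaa
copy on chromosome 7: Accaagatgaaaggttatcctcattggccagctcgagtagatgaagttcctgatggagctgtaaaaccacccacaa
Psip1 coding bases 113 to 188: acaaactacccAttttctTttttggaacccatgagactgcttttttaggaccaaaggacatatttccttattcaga
copy on chromosome 7: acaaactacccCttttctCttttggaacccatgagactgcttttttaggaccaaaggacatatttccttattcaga
Morf4l1 coding bases 592 to 667: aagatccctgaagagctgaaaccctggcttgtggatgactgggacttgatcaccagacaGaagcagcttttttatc
copy on chromosome 19: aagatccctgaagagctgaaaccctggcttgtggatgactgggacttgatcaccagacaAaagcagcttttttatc
Morf4l1 coding bases 744 to 819: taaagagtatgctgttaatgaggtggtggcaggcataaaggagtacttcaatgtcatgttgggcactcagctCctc
copy on chromosome 19: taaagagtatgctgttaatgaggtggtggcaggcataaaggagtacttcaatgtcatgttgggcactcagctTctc
Apart from the second Psip1 pair, where 74 of 76 bases matched, 75 of 76 bases matched in each pair.

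The log2 folds of the 7 reader rows ran from -0.36 for Zmynd11 to 0.15 for Hdgfrp2, and 0 of 7 were 1.5-fold apart in either direction. Of the 13523 genes that averaged 1 CPM or more over the libraries, called the floor here, 14.2% were 1.5-fold apart or more, 7.42% higher and 6.77% lower in knockout cells. At 2-fold, which 0 of 7 readers reached, the share was 3.87%, with 1.76% higher and 2.11% lower. With a share of 14.2%, a count of 0 among 7 genes is near the background and is not a result about the readers. The median log2 fold of the readers was -0.06, with 5 below 0 and 2 above, beside a median of 0.05 over all genes, whose quartiles were -0.20 and 0.28. The 7 rows alone, without the rows described below that span a copy, summed to 935 CPM in wild-type and 930 CPM in knockout cells. Per kilobase of annotated exon the sums were 250 and 257. The numbers of higher and lower genes over all genes were 1004 and 916, or 799 and 1112 when the libraries were rescaled by a trimmed mean of log ratios.

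**Figure D1:**
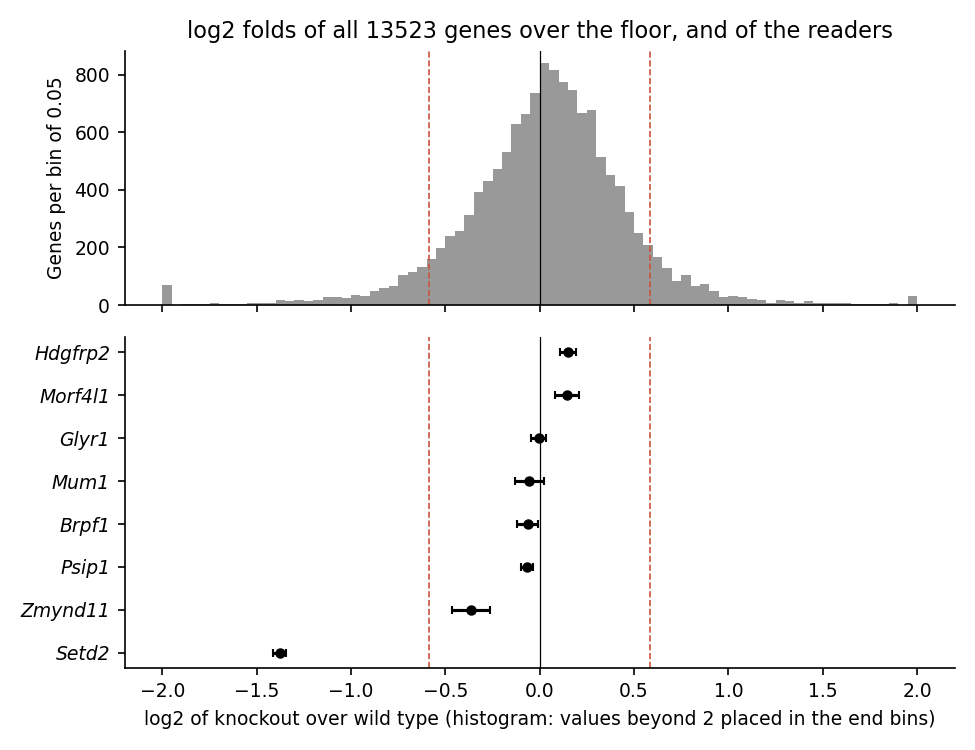
The upper panel counts all 13523 genes over the floor by log2 fold, and the lower panel gives the log2 ratio of the 2 levels for each reader and Setd2, with bars for the 95% counting interval. Dashed lines mark 1.5-fold. The 7 readers lie between the dashed lines, from Zmynd11 at -0.36 to Hdgfrp2 at 0.15, and Setd2 lies at -1.37.

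Psip1 and Hdgfrp2 are the pair with a PWWP domain near the start and an integrase-binding domain near the end of the protein. Psip1, also known as LEDGF, tethers the menin and MLL methyltransferase complex and lentiviral integrases to chromatin. Its row (gene number 101739, chromosome 4, 83101585 to 83132294, minus strand, mm9) held 18901 reads in the wild-type and 16734 in the knockout library, or 337 and 322 CPM. The knockout level was 95.5% of the wild-type level (95% interval 93.5 to 97.5%), a log2 fold of -0.07. The intervals given here are exact conditional binomial intervals and hold counting error alone, since such reads carry no molecular identifiers and need not be separate molecules. Psip1 makes a long and a short protein from shared first exons, and a total over the gene does not tell them apart. Of its annotated exon bases 9.50% are also exons of Snapc3 on the opposite strand, and whether strand was used in counting is not stated in the sources used here. Such opposite-strand overlap was 13.2% for Morf4l1 (Gm17659), 3.79% for Brpf1 (Gm15492) and 0.261% for Hdgfrp2 (Plin4). Mum1, Zmynd11 and Glyr1 had none.

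Hdgfrp2, a relative of hepatoma-derived growth factor that shares partners with Psip1, had the highest fold of the 7. The row (gene number 15193, chromosome 17, 56219080 to 56240019, plus strand) was at 156 CPM in wild-type and 173 CPM in knockout cells. The knockout level was 111% of the wild-type level (108 to 114%), a log2 fold of 0.15. Of all genes over the floor 76.6% lay as far or farther from the median of all genes, so this fold was well inside the common spread.

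The row that spans the Psip1 copy had reads in the wild-type library only. Vmn2r53 (chromosome 7, 13166819 to 13191893, minus strand) is a gene for a pheromone receptor of the vomeronasal organ. It held 3243 reads in the wild-type library, or 57.8 CPM, and was listed at 0 in the knockout library. The copy covers 11.4% of that row's span and overlaps 0 of its annotated exon bases, and the table does not say from which bases the reads came. With the Vmn2r53 reads counted as Psip1, the knockout level of Psip1 would be 81.5% of the wild-type level (79.9 to 83.2%), a log2 fold of -0.29 in place of -0.07. Whether those reads came from Psip1 transcripts was not tested.

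Morf4l1, also known as MRG15, is the chromodomain reader, a subunit of the TIP60 acetyltransferase complex and of a SIN3 deacetylase complex. Its row (gene number 21761, chromosome 9, 89986509 to 90009658, minus strand) was at 70.7 CPM in wild-type and 78.1 CPM in knockout cells. The knockout level was 110% of the wild-type level (106 to 115%), a log2 fold of 0.14. How reads that match several of its places were assigned is not stated in the sources used here, so the level of the row is uncertain.

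Of the table's rows 4 span a Morf4l1 copy, and a pair of these, both predicted genes, consist almost wholly of one. The remaining places have no row, among them copies on chromosome 5 (Gm5564, 73 windows), chromosome 3 (67) and chromosome 18 (Gm4835, 55). Reads placed there would be in no sum given here, so no sum covers every copy. Like Vmn2r53, the rows with copies were singled out after the values were seen. Gm6747 (chromosome 19, 41599775 to 41601471, plus strand), 98.4% of it covered by the copy, was at 141 CPM in wild-type and 86.1 CPM in knockout cells, so in both libraries it was above Morf4l1 itself. Its knockout level was 61.0% of the wild-type level (58.8 to 63.3%). Gm6663 on chromosome 18, 99.1% covered, was at 11.6 and 11.7 CPM. Adding these 2 rows to Morf4l1 gave 223 CPM in wild-type and 176 CPM in knockout cells, 78.7% of the wild-type level (76.6 to 80.9%). The log2 fold was then -0.34 in place of 0.14, and the row Morf4l1 held 31.6% of the summed reads in wild-type and 44.4% in knockout cells. The other 2 rows are large protein-coding genes of which the copy is a small part outside their annotated exons, and both were higher in the knockout library. Lpp, whose copy matches 82 windows and covers 0.282% of the row, was at 74.1 and 106 CPM (log2 fold 0.51). Kif11, whose copy matches 11 windows and covers 1.83% of the row, was at 332 and 401 CPM (0.27). With all 4 rows added the log2 fold was 0.12, but 11.2% of those reads in wild-type and 11.4% in knockout cells came from the row Morf4l1. The direction of Morf4l1 thus turned with the rows counted for it, and which of their reads came from its transcripts was not tested.

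**Figure D2:**
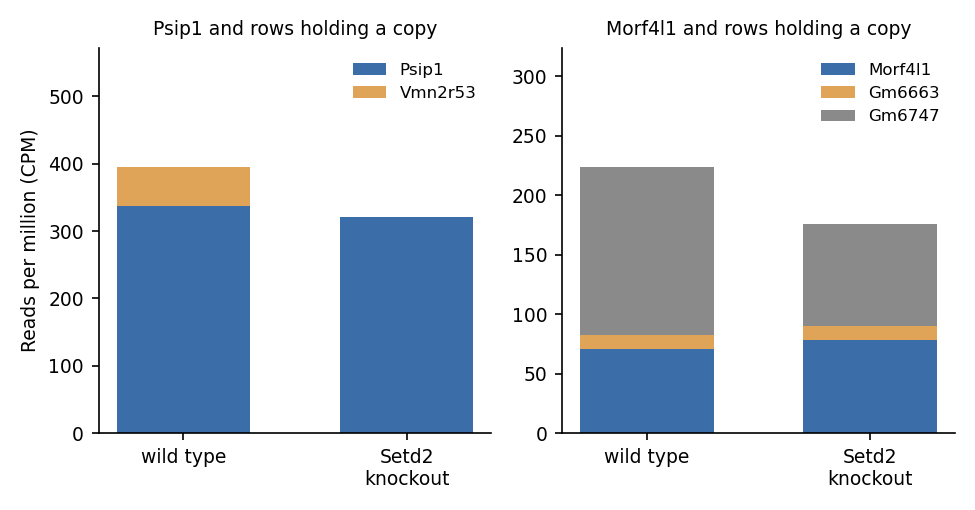
Bars give reads per 1000000 (CPM) in the wild-type and the knockout library, for Psip1 with the row Vmn2r53 (left) and for Morf4l1 with the rows Gm6663 and Gm6747 (right), stacked. Rows of which a copy covers under 10%, Lpp and Kif11, are not drawn. The Vmn2r53 segment of 57.8 CPM has no counterpart in the knockout library, and Gm6747 is the largest segment of the Morf4l1 bars, at 141 and 86.1 CPM.

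Brpf1 is a multivalent scaffold, with bromodomain, PHD fingers and PWWP domain, that activates the MOZ and MORF acetyltransferases. The Brpf1 row (gene number 78783, chromosome 6, 113257191 to 113274698, plus strand) was at 96.3 CPM in wild-type and 92.1 CPM in knockout cells. The knockout level was 95.7% of the wild-type level (92.0 to 99.5%), a log2 fold of -0.06.

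Mum1 encodes a PWWP protein linked to chromatin at DNA damage. Its row (gene number 68114, chromosome 10, 79689343 to 79707889, plus strand) was at 50.8 CPM in wild-type and 48.9 CPM in knockout cells. The ratio was 96.2% (91.2 to 102%), and the interval holds equal levels.

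Glyr1, also known as NPAC, joins a PWWP domain to a dehydrogenase-like domain and is a cofactor of the demethylase Kdm1b. The Glyr1 row (gene number 74022, chromosome 16, 5013995 to 5050003, minus strand) was at 189.5 CPM in wild-type and 188.8 CPM in knockout cells. The ratio was 99.6% (96.9 to 102%), the closest of the 7 to equal.

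Zmynd11, also known as BS69, reads the mark on the replacement histone variant of H3 and restrains elongation and intron splicing. It had the lowest fold of the readers. The Zmynd11 row (gene number 66505, chromosome 13, 9684082 to 9764454, minus strand) held 1947 reads in the wild-type and 1404 in the knockout library, or 34.7 and 27.0 CPM. The knockout level was 77.8% of the wild-type level (72.6 to 83.3%), a log2 fold of -0.36. Of all genes over the floor 14.7% had a lower fold and 27.0% lay as far or farther from the median, against 72.7 to 86.2% for the other readers. Genes on chromosome 13 had a median log2 fold of 0.12, and the chromosomes of the other readers had medians from 0.04 to 0.10.

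Per kilobase of annotated exon the readers spanned a wide range of levels. The order of the mean over both libraries was Hdgfrp2 (71.5 CPM per kilobase of exon), Psip1 (64.8), Glyr1 (56.5), Morf4l1 (37.5), Brpf1 (14.0), Mum1 (4.81) and Zmynd11 (4.37). The highest was 13.8 times the lowest in wild-type and 19.7 times in knockout cells. In the wild-type library Hdgfrp2 at 67.8 and Psip1 at 66.3 had overlapping counting intervals, as did Zmynd11 at 4.92 and Mum1 at 4.90. In the knockout library they stood apart, Hdgfrp2 at 75.3 and Psip1 at 63.3, and Mum1 at 4.72 and Zmynd11 at 3.82. Over the 12788 genes with an exon length and at least 1 CPM the median was 7.32, and 93.8% of these genes were below Hdgfrp2 and 37.7% below Zmynd11.

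The order at the top and at the bottom depends on the length used. Exons of all annotated transcripts together make 5082 bases for Psip1 and 10361 for Mum1, while the coding sequence is 1584 and 2046 bases. Per kilobase of coding length Psip1 led at 208, then Glyr1 at 114, Hdgfrp2 at 80.9 and Morf4l1 at 68.5. Brpf1 at 25.2, Mum1 at 24.4 and Zmynd11 at 16.6 were the lowest of the 7, in the same order as per kilobase of exon. Per longest transcript Zmynd11 at 7.08 was above Mum1 at 6.29. The transcripts with the longest coding sequence have 13 to 16 exons in all 7 genes, and the annotated transcripts number from 2 for Hdgfrp2, Morf4l1 and Glyr1 to 20 for Zmynd11.

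**Figure D3:**
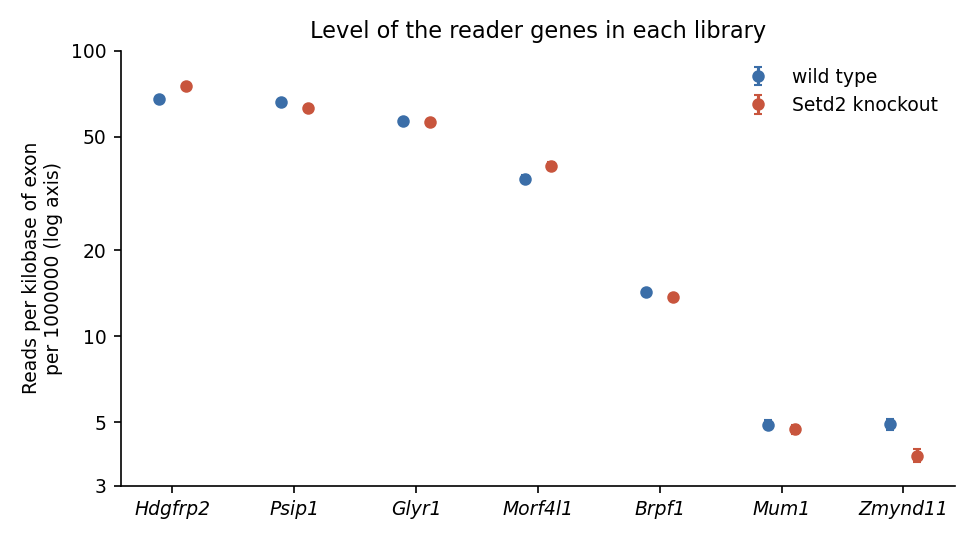
Points give the level of each reader in CPM per kilobase of exon on a log axis, wild type in blue and knockout in red, with bars for the 95% Poisson counting interval, mostly smaller than the points. The genes run from Hdgfrp2 at 67.8 and 75.3 to Zmynd11 at 4.92 and 3.82, where the 2 points are farthest apart.

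The paralogs of the readers share domains with them. Of 10 listed, 9 had a row, and 0 of 9 were 1.5-fold apart, beside 14.2% of all genes. Their median log2 fold was 0.20, beside 0.05 over all genes. The largest were Hdgfrp3, at 16.2 and 23.2 CPM (log2 fold 0.50), and Brpf3, at 52.0 and 37.1 CPM (-0.48), a second scaffold of acetyltransferase complexes. Msl3, the chromodomain subunit of the MSL complex, was at 9.17 and 12.3 CPM. Mum1l1, the X-linked relative of Mum1, was at 5.70 and 4.98 CPM.

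Per kilobase of exon, Hdgf was the most abundant member of the HDGF family, at 154 in the wild-type and 150 in the knockout library. Psip1 made up 22.9% of that 4-gene family in the wild-type and 21.7% in the knockout library, and Hdgfrp2 23.4 and 25.9%. These shares rest on exon length, and the reads of Vmn2r53 are not in that of Psip1. Per kilobase of coding length the order of Psip1 and Hdgfrp2 was reversed, with Psip1 at 208 and Hdgfrp2 at 80.9 as means of both libraries. Morf4l2, at 80.7 and 94.3, was above Morf4l1, but 78.9% of its windows also had another place. Brd1, at 16.3 and 14.9, was close to Brpf1, at 14.3 and 13.7. The share of Zmynd11 in its pair with Zmynd8, a bromodomain and PWWP reader, was 24.3% in the wild-type and 17.8% in the knockout library. Zmynd8 was at 169 and 195 CPM (log2 fold 0.20), so the pair lay on opposite sides of 0. Glyr1 exceeded Hibadh, a metabolic dehydrogenase of related fold, with 74.3 and 69.2% of their sum.

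**Figure D4:**
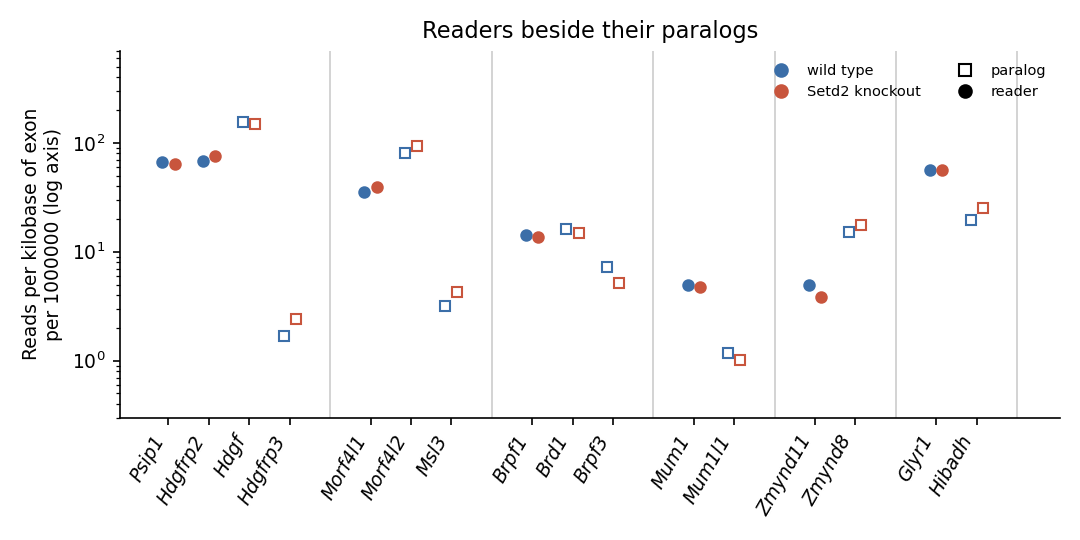
Levels in CPM per kilobase of exon on a log axis for the readers (filled circles) and their paralogs (open squares), wild type in blue and knockout in red, with grey lines between families. Hdgf, at 154 and 150, is the highest of the genes drawn. The 2 colours lie farthest apart for Hdgfrp3, at 1.70 and 2.42, and for Brpf3, at 7.23 and 5.15.

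Partners of Psip1 had 1 of 12 members 1.5-fold apart, near the share of 14.2% over all genes. Their median log2 fold was -0.11, with 8 of 12 below 0, beside 0.05 and 43.6% over all genes. Menin (Men1) was at 58.5 and 46.4 CPM and the methyltransferase gene Mll1 at 331 and 263 CPM, log2 folds of -0.33 each. Wbp7, a second methyltransferase that binds menin, was at 315 and 259 CPM (-0.28). Men1, Mll1 and Wbp7 were named after their values were seen. The mediator subunit gene Med1 (-0.39) and the methyltransferase gene Ash1l (-0.38) were the lowest. Cdc7, the kinase that fires replication origins, was at 62.0 and 100.3 CPM (0.69), and the elongation factor gene Ctr9 at 123 and 166 CPM (0.43).

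Partners of Morf4l1 in the TIP60 complex had 0 of 15 members 1.5-fold apart, beside 14.2% of all genes, and a median log2 fold of -0.01. The lowest were the small subunit gene Meaf6, at 13.02 and 8.90 CPM (-0.52), and the scaffold gene Trrap, at 491 and 366 CPM (-0.43). The highest were the actin-related gene Actl6a, at 136 and 176 CPM (0.38), and the PHD finger gene Ing3 (0.20).

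Partners of Morf4l1 in SIN3 complexes had 1 of 10 members 1.5-fold lower and 0 higher, beside 6.77% and 7.42% of all genes, with a median of 0.15. That member was the deacetylase gene Hdac1, at 55.7 CPM in wild-type and 19.6 CPM in knockout cells, 35.2% of the wild-type level (32.8 to 37.8%). For Hdac1 85.6% of windows had another place in the genome, so its level is uncertain. The paralogous deacetylase gene Hdac2 was at 162 and 220 CPM (0.44), with 0 windows having another place. Sin3b, on chromosome 8, had a log2 fold of -0.38, and Gatad1 was at 0.40.

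Partners of Brpf1 had 1 of 6 members 1.5-fold lower and 0 higher, again beside 6.77% and 7.42% of all genes, with a median of -0.25, the lowest of the lists of partners. The catalytic subunit gene Myst3, which encodes MOZ, was at 255 and 167 CPM, a knockout level 65.5% as high (63.7 to 67.2%). Myst3 lies on chromosome 8, whose 719 genes had a median log2 fold of -0.35. The related catalytic subunit gene Myst4, which encodes MORF, was at 372 and 365 CPM (-0.03), and the subunit gene Ing4 was at 0.07. Partners of Zmynd11 and Glyr1 had 0 of 5 past 1.5-fold, beside 14.2% of all genes. Their median was -0.02 and their range the narrowest of the partner lists. They ran from Eftud2, the spliceosomal GTPase gene, at 491 and 474 CPM (-0.05), to the spliceosomal helicase gene Snrnp200 at 972 and 1037 CPM (0.09), with the demethylase genes Kdm1a at -0.05 and Kdm1b at 0.06.

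Among 16 other genes with PWWP, chromo or Tudor readers or histone chaperones of elongation, 2 were 1.5-fold lower and 0 higher, with a median of 0.05, where the shares of all genes were 6.77% and 7.42%. Phf19, a Tudor protein that links the mark to Polycomb complex 2, was at 13.2 and 5.66 CPM (-1.16). Dnmt3a, the de novo DNA methyltransferase with a PWWP domain, was at 658 and 343 CPM (-0.94). Mtf2, a Tudor relative of Phf19, was the highest at 631 and 885 CPM (0.49). The writers had Setd2, the gene named by the knockout label, lower and Setmar higher among 8, beside 6.77% and 7.42% of all genes. Setmar was at 4.76 and 8.39 CPM (0.76), and the median of the writers, Setd2 included, was -0.21. The erasers over the floor had 0 of 7 past 1.5-fold, beside 14.2% of all genes, and a median of 0.04. Their lowest was 2410016O06Rik at -0.47 and their highest Kdm4a at 0.10, while Kdm4c was at -0.08 and Jmjd5 at 0.10. Kdm4d was below 1 CPM in both libraries.

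Over all 81 list genes that passed the floor, each counted once, 2 were 1.5-fold higher and 5 lower, beside 7.42% and 6.77% of all genes, and the median was -0.02. The 7 genes past the threshold were Cdc7, Setmar, Hdac1, Myst3, Phf19, Dnmt3a and Setd2. Setd2, counted among the 5 lower, is the gene named by the knockout label, so its place there says nothing about the lists. The lists overlap in members.

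**Figure D5:**
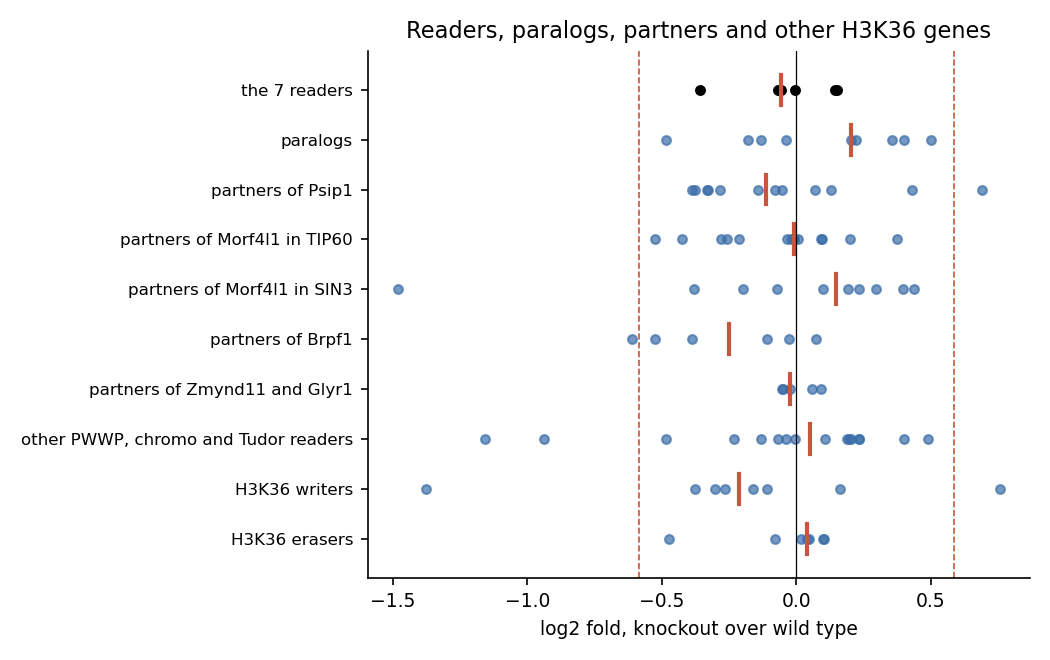
Each point is 1 gene at its log2 fold, knockout over wild type, by list, with the 7 readers in black, list medians as red bars and 1.5-fold as dashed lines. The readers span -0.36 to 0.15, while single genes of other lists lie beyond the dashed lines, from Hdac1 at -1.48 to Setmar at 0.76.

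With 2 libraries, likeness between genes can only mean closeness in both levels. By distance in log2 CPM over the 2 libraries, the named gene nearest to Psip1 was Myh10, and for Hdgfrp2 it was Nol8. Exoc2 was nearest to Morf4l1, Sephs1 to Brpf1, Pms2 to Mum1, Prr14 to Zmynd11 and Atg2b to Glyr1. From 78 genes (Psip1) to 259 genes (Morf4l1) lay within a distance of 0.2, so no gene is particular to a reader by this measure.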

How the data were processed

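The submitters' processing notes name the mm9 build, TopHat 1.0.13 and CASAVA 1.6.0 without saying what each did. The deposited table has 17827 rows and its headers name RPKM. The deposited values are on a log2 scale and were read as log2(x + 1), x being sequenced bases over the gene divided by 76: of x under 200, 85.9% and 85.7% were whole multiples of 1 base within 0.05 of a base. How the authors treated reads with several alignments, and strand, is not stated in the sources used here.

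Values were scaled to a library total of 1000000, a symbol took its highest row, and the mean of both libraries had to reach 1 CPM. Exon lengths came from the GENCODE annotation of NCBIM37, the assembly of mm9. Windows were aligned with minimap2 2.31 and their places merged within 5000 bases. Fold calls and ratio intervals were checked on a simulated pair of libraries that held counting error alone. The copy search, added rows, levels per kilobase and list counts were not part of that check. The members and lists were chosen with earlier results of these data known, and genes named by rule were the members, their paralogs, list genes past 1.5-fold, and the 2 highest and 2 lowest of each list. No test was run, since each group has 1 library. Alternatives were pseudocounts of 0.1 and 1, 3 rescalings, summed rows, floors of 5 CPM or none, other thresholds, other lengths, and adding rows that span a copy. Protein sequences were not used here.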

Additional observations from a re-analysis of the deposited data

How the results depend on the processing

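No paired analysis was possible because a genotype had 1 library, which also means that none could be left out. Of 56 recomputed log2 folds of the readers 45 stayed within their counting interval and 1 changed sign. Part of the 56 could not move, so 45 is no measure of stability. Summed rows left every reader as it was, added copies can change Psip1 and Morf4l1 alone, and the pseudocounts moved folds little. All folds that left their interval came from a rescaling or from added copies. With the median log2 ratio set to 0 the folds were -0.12 for Psip1, 0.097 for Hdgfrp2 and -0.059 for Glyr1. With equal upper quartiles Psip1 was at -0.10. With the trimmed mean they were -0.13 for Psip1, 0.090 for Hdgfrp2, -0.12 for Brpf1 and -0.067 for Glyr1. The median and trimmed-mean settings shift all genes by 0.054 and 0.061. With reads of rows at least 10% covered by a copy added, chosen after seeing the data, Psip1 was at -0.29 and Morf4l1 turned to -0.34. With all rows that span a copy added, also chosen later, Psip1 was again at -0.29 and Morf4l1 at 0.12. At the lowest threshold tried, which was below 1.5-fold, 1 of 7 readers, Zmynd11, was lower and 0 were higher. The share of all genes past that threshold was not computed. Of all genes over the floor 14.7% had a lower fold than Zmynd11, so at least that share was also past it. A count of 1 among 7 is therefore not a result about Zmynd11. The counts of 2 higher and 5 lower list genes, Setd2 among the lower, held under every pseudocount, floor and rescaling run. Outside chromosome 8, also chosen later, 4 were lower. Over all genes 577 were higher with a floor of 5 CPM, against 1004. Levels per kilobase moved with the length used. Per longest transcript they were 101 for Psip1, 19.9 for Brpf1, 6.29 for Mum1 and 7.08 for Zmynd11. Per transcript with the longest coding sequence, added later, they were 101 for Psip1, 20.2 for Brpf1, 18.9 for Mum1 and 16.6 for Zmynd11. Per coding length they were 208 for Psip1, 80.9 for Hdgfrp2, 68.5 for Morf4l1, 25.2 for Brpf1, 24.4 for Mum1, 16.6 for Zmynd11 and 114 for Glyr1. Counting error is small at these depths, so the missing replicates limit every comparison.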

Other observations

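CpG dinucleotides were counted in the promoters of the readers. RefSeq windows of 300 bases around the gene start (GRCm38.p6) were matched by gene number for 6 of the 7 readers, with 9 windows in all, and Psip1 had no entry. They held 9 to 48 CG dinucleotides, and all 9 windows were above the median of 7 over 32851 promoters (quartiles 3 and 20). Those promoters belong to 27025 genes and were not limited to genes over the floor, as all 7 readers are. Whether the readers differ in CpG count from other expressed genes was not tested. The Morf4l1 window (13) and 1 Zmynd11 window (9) were below the upper quartile. The lowest count belonged to 1 of 4 Zmynd11 windows and the highest to another of them. Of these 9 windows 0 held TATAAA on either strand, which 13.6% of all promoter windows did, and a missing match says only that these letters are not in the window.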
